A study of Mus musculus with 12 samples.

Results

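The RNA levels of 9 enzymes of threonine, glycine and methionine metabolism were followed in mouse embryonic stem cells as they left the naive state. The enzymes are Tdh, Gcat, Gldc, Shmt1, Mthfd1, Mtr, Mat2a, Ahcy and Nnmt, taken by gene name from a table of 47729 genes. They were chosen for their place in metabolism, and all 9 were found. Tdh and Gcat had lost most of their RNA by 24 h of induction in both genotypes, whereas none of the 8 enzymes that could be tested passed the test between genotypes.

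Threonine is broken down in mitochondria: Tdh, threonine dehydrogenase, oxidises threonine, and Gcat splits its product into glycine and acetyl-CoA. Gldc is the decarboxylase of the glycine cleavage system, which passes a carbon of glycine on to tetrahydrofolate. Shmt1 and Mthfd1 interconvert folate-bound carbon units in the cytosol, and Mtr uses one of them to remake methionine from homocysteine. Mat2a turns methionine into S-adenosylmethionine, the methyl donor for DNA and histones, Ahcy clears the S-adenosylhomocysteine left after methyl transfer, and Nnmt spends methyl groups on nicotinamide. Mouse embryonic stem cells are known for high Tdh and for a need for threonine in culture.

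The cells were of the E14Tg2a line (strain 129/Ola). Both copies of a regulatory region of Tcf15, which encodes a basic helix-loop-helix factor, were deleted in the delta 0.7 line. The series places the deletion at chr2:152177049-152177722. WT is the parental E14Tg2a line. Each line was sampled at 0 h, in serum-free N2B27 with 2i and LIF, and after 12 h and 24 h on a fibronectin coat in the same base medium with Activin, bFGF and KOSR, which drives naive cells towards an epiblast-like state. There were 2 libraries in each of the 6 groups, 12 in all. The delta 0.7 columns carry the name of 1 clone, so the deletion and the clone cannot be told apart. Whether replicates were separate cultures is not stated, so p-values measure only the spread between these libraries, which may be technical. RNA came from whole cultures, where fewer cells of a type and less RNA per cell cannot be told apart.

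Levels are deposited FPKM values, which correct fragment numbers for transcript length and for a depth that was scaled in each library. Changes are differences of log2(FPKM + 1) fitted with limma over 13981 genes, each with its model standard error (SE). A gene was called at a Benjamini-Hochberg adjusted p under 0.05. The depth recovered from the FPKM steps was 9740946 to 17571374 reads per library. The depth that the FPKM scale implies differed from these reads at 0 h in replicate 1. It was 75.5% of them in delta 0.7 and 92.2% in WT, against 99.7% to 107% in the other 10 libraries. FPKM in those 2 libraries thus stands higher than reads and length alone would give. The part of this scaling in the spread at 0 h was not tested. Tcf15, the targeted gene, stood at 1.04 to 4.44 FPKM in the 6 delta 0.7 libraries, against 3.45 to 99.4 FPKM in the 6 WT libraries. General pluripotency markers summed to 1208 to 1894 FPKM in every library, and 6 primitive endoderm markers to at most 0.953 FPKM. Within the first sum, Nanog fell from 417 and 255 FPKM at 0 h to 31.1 and 33.4 FPKM at 24 h in delta 0.7. In WT Nanog fell from 335 and 282 FPKM to 63.3 and 68.5 FPKM. Utf1 rose over the same time, from 107 and 75.9 FPKM to 655 and 609 FPKM in delta 0.7. In WT Utf1 rose from 116 and 76.1 FPKM to 625 and 598 FPKM. At 24 h, 7 naive markers summed to 350 to 375 FPKM in delta 0.7 (1025 to 1158 FPKM at 0 h) and 488 to 496 FPKM in WT (992 to 994 FPKM at 0 h). Of these, Nr0b1 alone rose, from 50.3 and 39.7 FPKM at 0 h to 134 and 107 FPKM at 24 h in delta 0.7. In WT it rose from 62.7 and 34.1 FPKM to 157 and 147 FPKM. The others lay lower at 24 h than at 0 h in both genotypes. The 5 formative markers summed to 460 to 467 FPKM in delta 0.7 and 309 to 353 FPKM in WT at 24 h, and to at most 38.0 FPKM at 0 h in either. The 8 fibroblast markers, each above 0 in some library, summed to 2.74 to 6.60 FPKM in delta 0.7 libraries, against 21.4 to 48.9 FPKM in WT replicate 1 libraries and 1.84 to 5.30 FPKM in WT replicate 2 libraries. The 5 trophoblast markers summed at 24 h to 14.6 to 15.9 FPKM in delta 0.7 (24.4 to 38.0 FPKM at 0 h) and 17.6 to 21.7 FPKM in WT (31.4 to 50.4 FPKM at 0 h). Of these, Cdx2 (-2.03 in delta 0.7, -2.73 in WT) and Tfap2c (-3.34 in both) fell by 24 h, Krt8 and Eomes were not called, and Elf5 stayed near 0. The part of these naive and trophoblast markers in the changes of the enzymes was not tested. In the 0 h replicate 1 libraries, ribosomal protein genes took 13.4% of reads in delta 0.7 and 11.4% in WT, against 5.73% to 7.50% in the other 10. The mitochondrial share of reads was higher in replicate 2 (1.80% to 2.87%, 6 libraries) than in replicate 1 (0.447% to 0.647%, 6 libraries), and the part of this split in differences between replicate numbers was not tested.

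**Figure D1:**
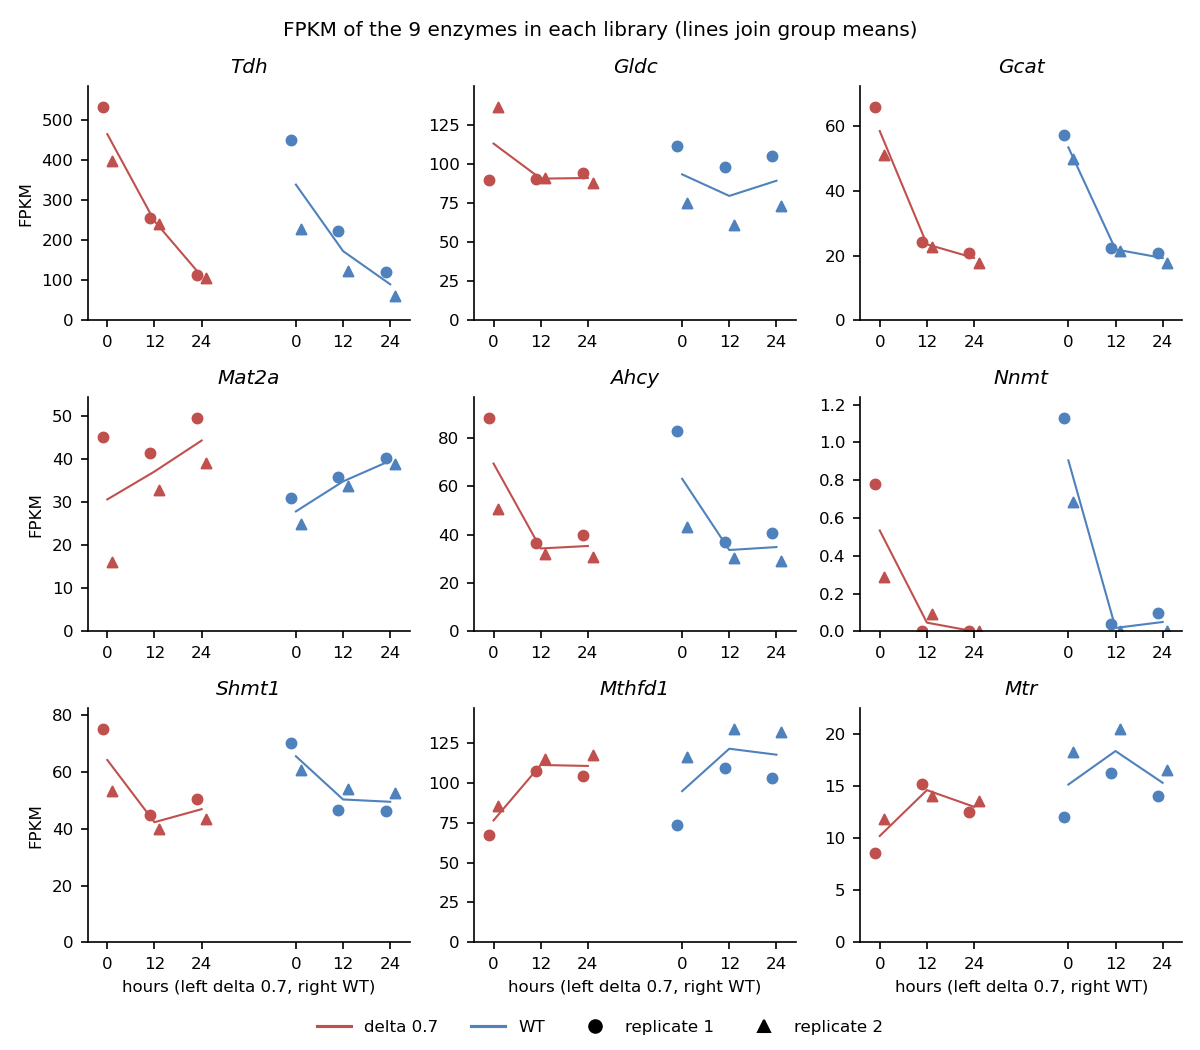
FPKM (y axis) of each enzyme in each library at 0, 12 and 24 h (x axis), delta 0.7 in red on the left and WT in blue on the right; circles are replicate 1, triangles replicate 2, and lines join the means of 2 libraries. Tdh and Gcat lie lower at 12 h and 24 h than at 0 h in every library of both genotypes, while the libraries of Gldc overlap between the times.

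The upstream sequences of 2 enzymes are shown. Gcat was taken because it was called at both times. Ahcy was taken because it followed a like course and was called with a replicate block but not in the main fit. These sequences come from the promoter table of RefSeq (GRCm38.p6), which held 7 of the 9 enzymes and lacked Tdh and Nnmt. Shmt1, with smaller changes that were not called in either fit, has an entry too and is not shown. Each run is the 250 bases before the annotated start, 5′ to 3′ on the strand of the gene. Capitals mark a GC box (GGGCGG or its complement) or a CCAAT box (CCAAT or its complement). The Gcat run is chr15:79030624-79030873 on the plus strand and the Ahcy run is chr2:155074498-155074747 on the minus strand.
Gcat upstream: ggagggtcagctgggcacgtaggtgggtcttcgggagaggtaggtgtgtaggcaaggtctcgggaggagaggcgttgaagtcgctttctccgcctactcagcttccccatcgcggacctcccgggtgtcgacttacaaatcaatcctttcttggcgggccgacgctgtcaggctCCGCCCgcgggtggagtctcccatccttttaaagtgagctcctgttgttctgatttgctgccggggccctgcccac
Ahcy upstream: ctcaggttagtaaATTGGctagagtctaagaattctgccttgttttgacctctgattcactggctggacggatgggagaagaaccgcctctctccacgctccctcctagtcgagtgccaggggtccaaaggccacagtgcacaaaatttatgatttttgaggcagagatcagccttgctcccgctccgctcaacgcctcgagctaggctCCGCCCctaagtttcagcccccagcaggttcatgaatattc
Counting from the start, the GC box began at base -76 in Gcat and at base -41 in Ahcy, and the CCAAT box of Ahcy began at base -237. Both motifs are common: searched on both strands, GGGCGG stood in 32.7% and CCAAT in 33.8% of 32851 promoter windows of 250 bases. All 7 enzymes with an entry had a GC box, and all of these but Gcat had a CCAAT box. That includes Gldc, Mthfd1, Mtr and Mat2a, which were not called. Tdh, the other enzyme called, had no entry, so its upstream bases were not searched. Searches for E-box, TATA box, octamer, amino acid response, STAT and TCF/LEF motifs found none in these 2 runs.

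Gcat also carried an E-box, CACGTG, within its first 10 transcribed bases, preceded by GT and followed by AC. The E-box is a motif that basic helix-loop-helix leucine zipper factors such as Usf and Tfe3 are known to bind. It is shown here with capitals on CACGTG, at chr15:79030864-79030893 of GRCm38.p6 on the plus strand.
Gcat start: ccctgcccacgtCACGTGacggggagcact
In windows of 300 bases that reach past the start, CACGTG stood in 7.15% of the 32851 promoters, and in 0.326% with GT before and AC after it. A match describes letters, not a bound site.

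Tdh was the most abundant of the enzymes at 0 h and fell in both genotypes by 24 h. Its gene is ENSMUSG00000021953, at chr14:63492347-63509092 on the minus strand (GRCm38). At 0 h it had 531 and 398 FPKM in delta 0.7 and 449 and 228 FPKM in WT. At 12 h it had 256 and 240 FPKM in delta 0.7 and 222 and 123.6 FPKM in WT. At 24 h it had 113 and 107 FPKM in delta 0.7 and 120 and 60.1 FPKM in WT. Every library at 24 h lay below every library at 12 h of the same genotype, which lay below every library at 0 h.

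By 24 h the log2 change of Tdh from 0 h was -2.06 ± 0.42 in delta 0.7 (SE, limma adjusted p = 0.012) and -1.90 ± 0.42 in WT (adjusted p = 0.0217). The 12 h changes did not pass: -0.89 in delta 0.7 (adjusted p = 0.242) and -0.95 in WT (adjusted p = 0.305). The step between 12 h and 24 h did not pass either, with -1.17 in delta 0.7 (adjusted p = 0.345) and -0.96 in WT (adjusted p = 0.643). Within same-numbered libraries the 24 h change was -2.23 and -1.89 in delta 0.7 and -1.90 and -1.91 in WT. The WT call ended without the 0 h replicate 1 library (-1.41, adjusted p = 0.117) or without the 24 h replicate 2 library (-1.41, adjusted p = 0.154). The delta 0.7 call ended without either of its 24 h libraries (adjusted p = 0.0674 and 0.083).

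The Tdh gene contains an annotated transcript on the opposite strand, Gm17232, at chr14:63493699-63499872. Its FPKM was 1.58 to 1.70 times that of Tdh in each of the 12 libraries, and ranged from 96.2 to 857 FPKM. No source used here says if counting used the strand, so reads of Tdh and Gm17232 cannot be told apart.

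Gcat, the next enzyme of the route, had most of its change behind it at 12 h. Its gene is ENSMUSG00000006378, at chr15:79030874-79038353 on the plus strand. The annotation holds an overlapping gene that also bears the name Gcat. That other gene was not examined, so it is not known if the counts of Gcat are affected by it. Naive cells at 0 h had 65.9 and 51.2 FPKM in delta 0.7 and 57.3 and 49.8 FPKM in WT. Cells at 12 h had 24.3 and 22.8 FPKM in delta 0.7 and 22.5 and 21.5 FPKM in WT. Cells at 24 h had 20.8 and 17.9 FPKM in delta 0.7 and 20.8 and 17.8 FPKM in WT. The 0 h libraries stood far above all later ones, and at 24 h the genotypes overlapped fully.

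The log2 change of Gcat at 12 h was -1.27 ± 0.18 in delta 0.7 (limma adjusted p = 0.00504) and -1.25 ± 0.18 in WT (adjusted p = 0.0069). At 24 h it was -1.54 ± 0.18 in delta 0.7 (adjusted p = 0.00077) and -1.43 ± 0.18 in WT (adjusted p = 0.00151). Between 12 h and 24 h it was -0.27 in delta 0.7 and -0.18 in WT, neither called. Leaving out either 12 h library ended the 12 h call, at adjusted p = 0.0545 and 0.0599 in delta 0.7 and 0.066 and 0.0561 in WT.

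These were the only calls among the 8 enzymes that passed the filter of at least 1 FPKM in at least 2 libraries. At 12 h, 1 of 8 fell in delta 0.7, where 3.45% of all genes tested were called lower, and 1 of 8 in WT, where 1.9% were. At 24 h, 2 of 8 fell in delta 0.7, where 7.8% of all genes were called lower, and 2 of 8 in WT, where 4.94% were. Between 12 h and 24 h, limma called 0 of 8 in either genotype, against 1.36% of all genes in delta 0.7 and 0.408% in WT. At an unadjusted p under 0.05 that step gave 1 enzyme, Tdh, in delta 0.7 and 0 in WT, and voom weights on recovered reads called 0 in both. The median change of the 8 enzymes at 24 h was -0.36 in delta 0.7 and -0.23 in WT, against -0.05 and -0.03 over all genes.

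**Figure D2:**
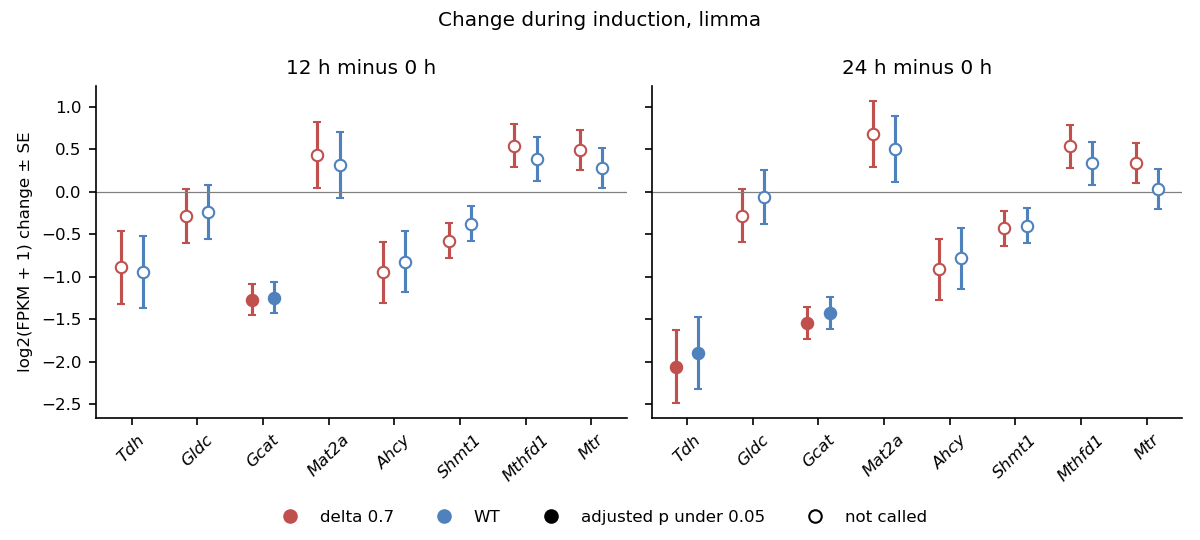
Log2(FPKM + 1) change since 0 h (y axis, ± SE of the limma fit, n = 2 libraries per group) of the 8 tested enzymes at 12 h (left) and 24 h (right), delta 0.7 in red left of WT in blue; filled points had an adjusted p under 0.05. Filled points belong to Gcat at both times and to Tdh at 24 h (-2.06 in delta 0.7, -1.90 in WT), and the error bars of the genotypes overlap for each enzyme.

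Ahcy, at chr2:155059310-155074497 on the minus strand, followed a course like that of Gcat but with a wide spread at 0 h. At 0 h the libraries had 88.0 and 50.7 FPKM in delta 0.7 and 82.9 and 43.1 FPKM in WT. At 12 h the libraries had 36.6 and 31.8 FPKM in delta 0.7 and 37.0 and 30.2 FPKM in WT. At 24 h the libraries had 39.7 and 30.9 FPKM in delta 0.7 and 40.8 and 28.9 FPKM in WT. All later libraries lay below the 0 h libraries of their genotype, and replicate 1 was the higher in every pair.

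Its log2 change at 24 h was -0.91 ± 0.36 in delta 0.7 (limma adjusted p = 0.121) and -0.78 ± 0.36 in WT (adjusted p = 0.219), so it was not called. With the replicate number as a block the same changes reached adjusted p = 0.0163 in delta 0.7 and 0.0372 in WT, and the 12 h change in delta 0.7 reached 0.0234. The high 0 h values were those of the replicate 1 libraries, in which ribosomal protein genes took 13.4% and 11.4% of reads. In these libraries the depth behind FPKM was 75.5% and 92.2% of the recovered reads. Without these libraries the 24 h change was -0.52 in delta 0.7 and -0.32 in WT (adjusted p = 0.16 and 0.401). On mm10 coordinates, Ahcy lies 2.88 Mb from the deleted region, on the same chromosome. Its delta 0.7 minus WT difference averaged 0.07 over the 3 times, with a 95% limma interval of -0.39 to 0.54.

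Shmt1, at chr11:60788104-60811718 on the minus strand, was the other tested enzyme with all later libraries below those at 0 h in both genotypes. Levels at 0 h were 75.1 and 53.5 FPKM in delta 0.7 and 70.3 and 60.9 FPKM in WT. Levels at 12 h were 44.7 and 39.98 FPKM in delta 0.7 and 46.6 and 54.2 FPKM in WT. Levels at 24 h were 50.6 and 43.4 FPKM in delta 0.7 and 46.3 and 52.8 FPKM in WT. The 24 h change was -0.43 ± 0.21 in delta 0.7 and -0.40 ± 0.21 in WT, with adjusted p above the threshold in both fits. In all, 4 of the 8 enzymes, Tdh, Gcat, Ahcy and Shmt1, had every later library below 0 h in both genotypes, as did 13.4% of all genes tested. For 0 of 8 did every later library lie above 0 h in both genotypes, against 12% of all genes.

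Gldc, at chr19:30098447-30175429 on the minus strand, was not called at either time. It had 89.9 and 136 FPKM at 0 h, 90.2 and 91.1 FPKM at 12 h and 94.3 and 87.9 FPKM at 24 h in delta 0.7. In WT it had 111 and 75.3 FPKM at 0 h, 98.0 and 61.2 FPKM at 12 h and 105 and 73.3 FPKM at 24 h. The ranges of the 3 times overlapped in both genotypes. The 24 h change was -0.28 ± 0.31 in delta 0.7 and -0.06 ± 0.31 in WT, neither called. In WT the replicate 2 library was the lower at each time, with a mean log2 difference to replicate 1 of -0.58, against a median of -0.12 over 37 genes within 5 Mb.

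Mthfd1, the folate enzyme with 3 activities, had the highest mean of the enzymes at 24 h. It lies at chr12:76255298-76319803 on the plus strand. Before induction it had 67.3 and 85.8 FPKM in delta 0.7 and 73.5 and 116 FPKM in WT. After 12 h it had 108 and 115 FPKM in delta 0.7 and 109 and 134 FPKM in WT. After 24 h it had 104 and 117 FPKM in delta 0.7 and 103 and 132 FPKM in WT. Later libraries lay above those at 0 h in delta 0.7 and overlapped them in WT. The 24 h change was 0.53 ± 0.26 in delta 0.7 and 0.33 ± 0.26 in WT, neither called.

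Mtr, methionine synthase, was the least abundant of the tested enzymes in every group. It lies at chr13:12182712-12258113 on the minus strand. In 2i with LIF it had 8.56 and 11.8 FPKM in delta 0.7 and 12.0 and 18.2 FPKM in WT. By 12 h it had 15.2 and 14 FPKM in delta 0.7 and 16.3 and 20.4 FPKM in WT. By 24 h it had 12.5 and 13.5 FPKM in delta 0.7 and 14.1 and 16.5 FPKM in WT. At each time both delta 0.7 libraries lay below both WT libraries. The share of all genes tested with this pattern was not counted, so it is only a description. Its delta 0.7 minus WT difference averaged -0.34 ± 0.14 over the times (limma adjusted p = 1), and its 24 h change was 0.34 in delta 0.7 and 0.04 in WT, neither called.

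Mat2a, at chr6:72432799-72439558 on the minus strand, was decided by 1 library at 0 h in delta 0.7. The 0 h values were 45.3 and 16.1 FPKM in delta 0.7 and 30.9 and 24.9 FPKM in WT. The 12 h values were 41.6 and 32.8 FPKM in delta 0.7 and 35.9 and 33.8 FPKM in WT. The 24 h values were 49.6 and 39.2 FPKM in delta 0.7 and 40.4 and 39.0 FPKM in WT. In WT each later time lay above the one before, while in delta 0.7 the 0 h libraries spanned nearly the whole range.

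The 24 h change of Mat2a was 0.68 ± 0.39 in delta 0.7 and 0.50 ± 0.39 in WT, neither called by limma. Without the delta 0.7 replicate 1 library at 0 h, the delta 0.7 change was 1.40 (adjusted p = 0.00445); without the replicate 2 library it was -0.04. An antisense transcript, Particl, overlaps the 5′ end of Mat2a and had 0.554 to 0.671 times its FPKM in all 12 libraries, so a shared count is possible here too.

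Nnmt, at chr9:48591877-48605153 on the minus strand, was barely above 0 and did not pass the filter. At 0 h it had 0.778 and 0.289 FPKM in delta 0.7 (11 and 8 recovered reads) and 1.13 and 0.682 FPKM in WT (18 and 14 reads). At 12 h it had 0 and 2 reads in delta 0.7 and 1 and 0 in WT. At 24 h it had 0 and 0 reads in delta 0.7 and 2 and 0 in WT. Nearly all its reads thus came from the naive cultures of both genotypes.

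Set against 0 h and corrected for depth, the 12 h level of Nnmt was 0.106 times in delta 0.7 (exact 95% counting interval 0.012 to 0.441) and 0.0264 times in WT (0.0006 to 0.158). At 24 h, with 0 reads in delta 0.7, the interval there reached up to 0.201 times, and the level in WT was 0.0599 times (0.007 to 0.235). These intervals cover counting error only. A limma fit without the filter, over 28657 genes, gave log2 changes at 24 h of -0.60 in delta 0.7 (adjusted p = 0.0621) and -0.85 in WT (adjusted p = 0.0222). In that fit the 12 h changes were -0.53 in delta 0.7 (adjusted p = 0.147) and -0.89 in WT (adjusted p = 0.0368).

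The order of the enzymes changed with induction. FPKM is a level per length, so enzymes can be ranked by it. The ranks of Tdh and Mat2a rest on counts that may include reads of Gm17232 and Particl. At 0 h Tdh led by far, with 465 ± 94.6 FPKM in delta 0.7 and 339 ± 156 FPKM in WT (mean ± SD, n = 2). At 24 h Mthfd1 and Tdh overlapped, with 111 ± 9.29 and 110 ± 4.25 FPKM in delta 0.7 and 118 ± 20.3 and 89.9 ± 42.1 FPKM in WT. Gldc followed with 91.1 ± 4.56 FPKM in delta 0.7 and 89.3 ± 22.7 FPKM in WT, overlapping Tdh in WT only. Shmt1, Mat2a, Ahcy and Gcat came next in that order in both genotypes. Shmt1 overlapped Mat2a in delta 0.7 and Mat2a overlapped Ahcy in both, while Gcat lay below Ahcy without overlap. Mtr and then Nnmt closed the order in every group.

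Between genotypes, limma called 0 of 8 enzymes at 0, 12 and 24 h and averaged over times. Of all genes tested, 0.00715%, 0.0143%, 0.00715% and 0.0143% were called in these 4 contrasts. At an unadjusted p under 0.05 the count was 0, 0, 0 and 1, the 1 being Mtr, and voom weights called 0. The difference between genotypes in the 12 h or the 24 h change was called for 0 of 8 enzymes and for 0% of all genes. No enzyme had an unadjusted p under 0.05 for it, and voom weights called 0 there too. For Gcat the difference between genotypes in the 24 h change was -0.12, with a 95% limma interval of -0.71 to 0.47. For Tdh it was -0.15, with a wider interval of -1.51 to 1.20.

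Tdh had the highest delta 0.7 minus WT difference of the enzymes, and this difference lay in 1 of the 2 pairs. It was 0.52 at 0 h, 0.58 at 12 h and 0.37 at 24 h on the log2 scale, and 0.49 ± 0.24 on average (95% limma interval -0.07 to 1.04, adjusted p = 1). In the replicate 1 libraries the mean over the times was 0.12, and in the replicate 2 libraries it was 0.86. Replicate 2 minus replicate 1 of Tdh averaged -0.20 in delta 0.7 and -0.93 in WT. The fibroblast markers given above were high in WT replicate 1, and their part in this difference was not tested.

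The genes around Tdh showed the same split. Within 5 Mb of its start, 62 other tested genes had a median delta 0.7 minus WT difference of 0.68 in replicate 2, where 60 of 62 were above 0. In replicate 1 their median was 0.08, with 41 of 62 above 0. Over all 13981 genes both medians were within 0.01 of 0. In WT, replicate 2 lay below replicate 1 for 55 of the 62, with a median of -0.60, against -0.09 in delta 0.7. In bins of 5 Mb, the replicate 2 median was 0.25 to 0.69 between 15 Mb before and 20 Mb after the Tdh start, and -0.21 to 0.10 in the other bins of at least 5 genes, the lowest being the 9 genes 20 to 25 Mb before it.

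Measured relative to the median of these neighbours, the delta 0.7 minus WT difference of Tdh was 0.12 at 0 h, 0.21 at 12 h and 0.06 at 24 h. On the same scale its 24 h change remained -1.97 in delta 0.7 (limma adjusted p = 0.000685) and -1.91 in WT (adjusted p = 0.0011). For Gcat, Ahcy, Shmt1, Mthfd1, Mtr and Mat2a the neighbours' median lay within 0.07 of 0 in both pairs. For Gldc it was 0.09 in replicate 1 and 0.01 in replicate 2. This comparison was chosen after the values had been seen.

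**Figure D3:**
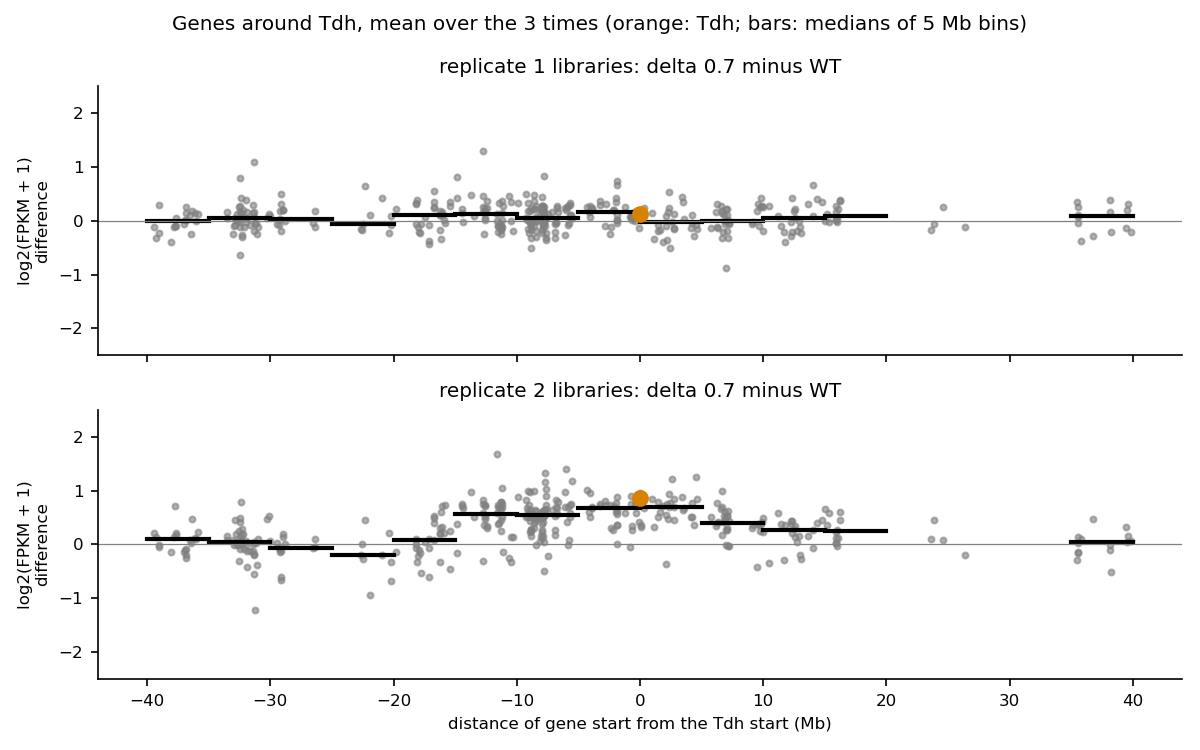
Delta 0.7 minus WT difference in log2(FPKM + 1), averaged over 0, 12 and 24 h (y axis), of 382 tested genes against the distance of their start from the Tdh start in Mb (x axis), in the replicate 1 libraries (top) and the replicate 2 libraries (bottom); black bars are medians of 5 Mb bins and the orange point is Tdh. In replicate 2 the bars lie above 0.24 between 15 Mb before and 20 Mb after Tdh, with 0.69 beside it, and one bar farther off lies at -0.21, and in replicate 1 they stay within 0.17 of 0.

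Of the 3 ranked genes with the pattern most like that of Tdh, 2 lie on its own chromosome. The ranking covered 7918 genes with a group mean of at least 5 FPKM. It left out the enzymes and genes with a predicted symbol (Gm or Rik), and so also Gm17232, which tracked Tdh in every library. In it the highest Pearson r with Tdh over the 12 libraries belonged to Ephx2 (0.971), Serpinb6c (0.965) and Ctsb (0.959), all given as a description. Ephx2, at chr14:66084374-66124500, and Ctsb, at chr14:63122462-63145923, lie within the stretch that was low in WT replicate 2. Their replicate 2 minus replicate 1 differences averaged -0.14 and -0.08 in delta 0.7 and -1.39 and -0.83 in WT, so the likeness holds the replicate difference as well as the time course. Serpinb6c, at chr13:33879816-33905708 and thus outside that stretch, had replicate differences of -0.48 in delta 0.7 and -1.15 in WT. Gcat was most like Serpinb1a (0.994), Hspb8 (0.993) and Ddah2 (0.992), on 3 other chromosomes. Hspb8, a small heat shock protein, had 96.5 and 74.7 FPKM at 0 h and 11.6 and 10.4 FPKM at 24 h in delta 0.7, and 84.5 and 75.3 FPKM at 0 h and 11.4 and 7.96 FPKM at 24 h in WT. Libraries of the same time and number share the differences described above, so these points are not independent.

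Around the 9 enzymes, 70 further genes of serine, folate, methionine, polyamine and nicotinamide metabolism and amino acid transport were listed, of which 60 passed the filter. At 12 h, 2 rose and 5 fell in delta 0.7, where 7% of all genes were called, and 2 rose and 3 fell in WT, where 4.03% were. At 24 h, limma called 4 higher and 7 lower in delta 0.7, and 3 higher and 5 lower in WT, against 7.58% of all genes called higher in delta 0.7 and 5.27% in WT. The share called at 24 h was thus 11 of 60 in delta 0.7, where 15.4% of all genes were called, and 8 of 60 in WT, where 10.2% were. With a replicate block, 12 of 60 at 12 h and 18 of 60 at 24 h were called in delta 0.7, and 8 and 13 in WT, each gain being a lower call; of all genes, 11.5% and 21.2% were then called in delta 0.7 and 7.07% and 15% in WT. Between genotypes limma called 0 of 60 in any contrast, with 0 to 4 at an unadjusted p under 0.05.

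On the log2(FPKM + 1) scale, the largest fall called in both genotypes was that of Sat1, which acetylates spermidine and spermine for breakdown and export. It had 103 and 56.3 FPKM at 0 h, 8.88 and 7.61 FPKM at 12 h and 4.99 and 3.54 FPKM at 24 h in delta 0.7. In WT it had 74.6 and 30.4 FPKM at 0 h, 7.75 and 8.05 FPKM at 12 h and 5.37 and 4.51 FPKM at 24 h. Its 24 h change was -3.89 ± 0.40 in delta 0.7 (limma adjusted p = 0.000395) and -3.04 ± 0.40 in WT (adjusted p = 0.0017). Within the same list, 7 polyamine and transsulfuration genes had a median 24 h change of 0.02 in delta 0.7 and 0.01 in WT.

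In the methionine cycle and salvage list, 2 of 12 tested genes fell at 24 h in delta 0.7 and 3 of 12 in WT, where 7.8% and 4.94% of all genes were called lower. Bhmt2, which remethylates homocysteine with S-methylmethionine, had 5.83 and 6.18 FPKM at 0 h and 0.211 and 0.0941 FPKM at 24 h in delta 0.7. In WT it had 7.96 and 12.4 FPKM at 0 h and 0.380 and 0.751 FPKM at 24 h. Its 24 h change was -2.61 ± 0.25 in delta 0.7 and -2.82 ± 0.25 in WT (limma adjusted p = 0.000284 and 0.000263). Adi1, a dioxygenase of methionine salvage, had 32.1 and 29.2 FPKM at 24 h against 86.1 and 65.0 FPKM at 0 h in delta 0.7. In WT it had 33.8 and 45.7 FPKM at 24 h against 90.4 and 84.3 FPKM at 0 h. The third gene called in WT was Bhmt, which uses betaine (-2.15, adjusted p = 0.019), named after its values were seen. The Adi1 call ended without either 24 h library in delta 0.7 (highest adjusted p = 0.0779), and in WT without either 0 h library or the 24 h replicate 1 library. The Bhmt call ended without the 0 h replicate 2 library or either 24 h library. Bhmt reached 1 FPKM in 4 libraries at 0 h, 1 at 12 h and 0 at 24 h, so it passed the filter almost wholly through 0 h. With a pseudocount of 0.1 the Bhmt2 change was -5.25 in delta 0.7 and -4.20 in WT, beyond that of Sat1.

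Among 17 folate enzymes and carriers, 1 rose and 1 fell at 24 h in each genotype, against the 15.4% in delta 0.7 and 10.2% in WT of all genes called in either direction. Folr1, folate receptor alpha, which takes folate into the cell, had 7.52 and 8.08 FPKM at 0 h, 54.4 and 55.1 FPKM at 12 h and 43.1 and 38.3 FPKM at 24 h in delta 0.7. In WT it had 12.9 and 13.8 FPKM at 0 h, 52.5 and 53.1 FPKM at 12 h and 51.5 and 44.6 FPKM at 24 h. Its 12 h change was 2.66 ± 0.16 in delta 0.7 and 1.91 ± 0.16 in WT (limma adjusted p = 0.000235 and 0.000611). Aldh1l1, which oxidises formyl-tetrahydrofolate to carbon dioxide, had a 24 h change of -1.89 in delta 0.7 and -2.03 in WT (adjusted p = 0.00213 and 0.00183).

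Of 8 tested amino acid transporters, limma called 2 higher at 24 h in each genotype and 0 lower, where 7.58% of all genes were called higher in delta 0.7 and 5.27% in WT. Slc38a2, a carrier of small neutral amino acids, had 40.3 and 57.3 FPKM at 0 h, 119 and 115 FPKM at 12 h and 204 and 228 FPKM at 24 h in delta 0.7. In WT it had 36.8 and 52.6 FPKM at 0 h, 98.3 and 86.5 FPKM at 12 h and 161 and 162 FPKM at 24 h. Its 24 h change was 2.14 ± 0.23 in delta 0.7 and 1.85 ± 0.23 in WT (limma adjusted p = 0.000459 and 0.00129). Slc43a2, a carrier of branched-chain amino acids and methionine, stayed low, at 1.49 and 2.04 FPKM at 24 h in delta 0.7 and 1.79 and 1.64 FPKM in WT, with 24 h changes of 0.80 in delta 0.7 and 0.86 in WT. It passed the filter only through its 24 h libraries, so its calls support nothing about the list; without the filter its adjusted p was 0.0411 in delta 0.7 and 0.0425 in WT. Its calls ended without the 0 h replicate 1 library or either 24 h library in delta 0.7, and without any 1 of the 4 libraries in WT.

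Serine synthesis genes had the lowest list median at 24 h, -1.86 in delta 0.7 and -1.04 in WT over 3 genes, with 1 called in delta 0.7 and 0 in WT. The gene called, Psat1, a transaminase of that route, had 326 and 108 FPKM at 0 h and 36.3 and 25.7 FPKM at 24 h in delta 0.7, and 230 and 82.8 FPKM at 0 h and 46.1 and 26.4 FPKM at 24 h in WT. Its 0 h replicate 1 libraries were the high ones in both genotypes, and the call (-2.58, limma adjusted p = 0.0177) ended without that library in delta 0.7 or without either 24 h library. In WT its 24 h change was -1.95 (adjusted p = 0.0682). With a replicate block Psat1 was called in WT too, at adjusted p = 0.00639, and at 12 h in both genotypes, at 0.00539 in delta 0.7 and 0.0196 in WT. The difference between genotypes in its 24 h change was -0.63 (adjusted p = 1). The other subunits of the glycine cleavage system that were listed, Amt, Gcsh and Dld, had 0 calls at either time in either genotype without the block, though Amt was called lower with it at both times in delta 0.7 and at 24 h in WT, with a list median at 24 h of -0.61 in delta 0.7 and -0.48 in WT. Phgdh, also of serine synthesis, was called lower with the block in delta 0.7 at 12 h and 24 h. Psat1, Phgdh, Amt, Gcsh and Dld were named after their values were seen.

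**Figure D4:**
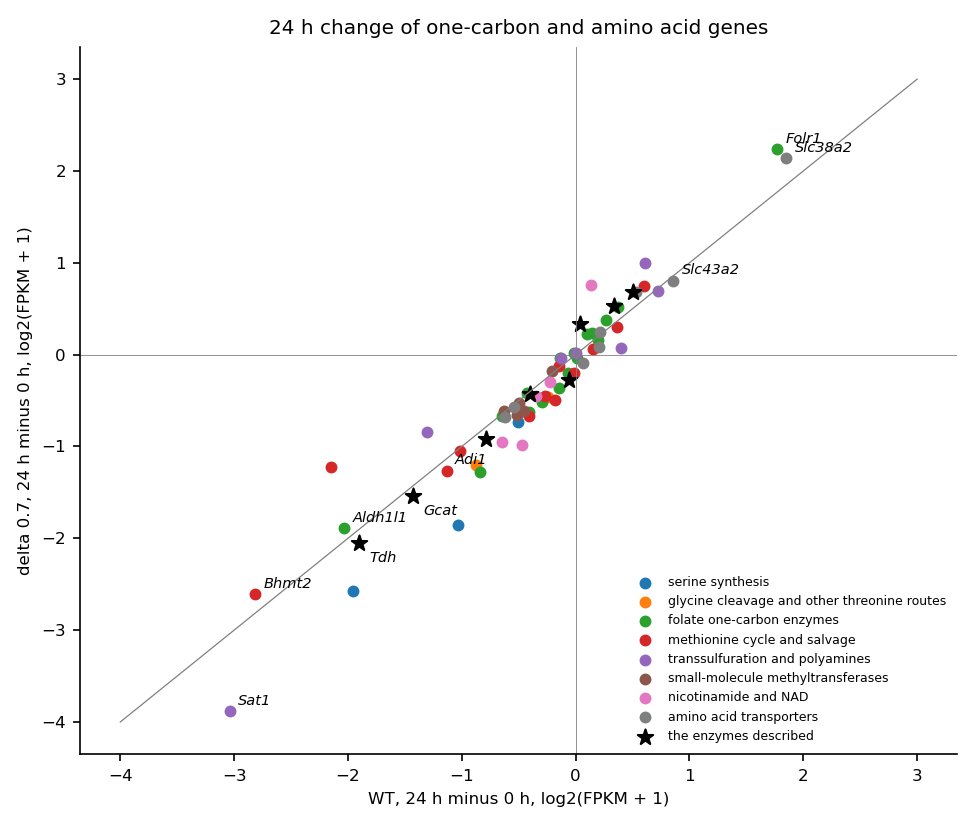
24 h minus 0 h change in log2(FPKM + 1) of the 60 tested neighbouring metabolic genes, coloured by list, and of the 8 tested enzymes (black stars), with delta 0.7 on the y axis and WT on the x axis; the line marks equal changes. Both changes are measured against 0 h libraries of their own genotype; Sat1 lies lowest on both axes (-3.89 in delta 0.7, -3.04 in WT), and Folr1 (2.24 and 1.77) and Slc38a2 (2.14 and 1.85) lie at the upper end.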

How the data were processed

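Messenger RNA was sequenced in 12 libraries of WT and delta 0.7 cells. Values are FPKM as the authors deposited them. The submitters' processing notes list cutadapt, STAR 2.5.2b, featureCounts 1.5.1, edgeR 3.16.5 and build mm10, without the role of each. Log2(FPKM + 1) of the 13981 genes with at least 1 FPKM in at least 2 libraries entered 1 limma model (limma 3.58.1, R 4.3.3) with a mean for each of 6 groups and a mean-variance trend, with no replicate block. P-values are 2-sided and were adjusted by Benjamini-Hochberg over all genes of each of 12 contrasts. The pseudocount of 1 understates changes of low genes. Whole reads within 0.01 were recovered from the FPKM steps for 100% of 28657 genes, using GENCODE M21 lengths for 80.1%, and served for depth, for Nnmt and for a voom alternative. Scripts ran in Python 3.11.15 and R 4.3.3, and the limma fit was tested on simulated data with known changes in the WT 24 h libraries.

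Replicate numbers come from the titles. Between WT and delta 0.7 at the same time, deviations of same-numbered libraries from their group means correlated at 0.70, 0.28 and 0.37 at 0, 12 and 24 h. Pairing across times, on which a replicate block in the time contrasts rests, was not measured as a correlation. Some differences did recur by replicate number at every time. In replicate 2 the genes near Tdh had a median delta 0.7 minus WT difference of 0.66, 0.73 and 0.61 at 0, 12 and 24 h. The mitochondrial share was 0.447% to 0.647% in replicate 1 and 1.80% to 2.87% in replicate 2. The main fit had no block, so such differences entered its spread. The fit with a block is given where it changed a call of an enzyme. For the neighbouring genes it is given as counts, with only Psat1, Phgdh and Amt named. Alternatives were a pseudocount of 0.1, no filter, scaling to the median gene, the replicate block, voom, and leaving out each library. Of the 70 neighbouring genes, up to 4 rises and 4 falls called in both genotypes at 24 h were named, by size. For likeness, the 3 genes with the highest Pearson r were named for each enzyme called at 24 h in both genotypes. The enzymes and genes with a Gm or Rik symbol were left out of that ranking. The 9 enzymes and all lists were chosen with earlier results of these data known.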

Additional observations from a re-analysis of the deposited data

How the results depend on the processing

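Results were refitted under 5 other settings and with each of 12 libraries left out, and under 3 settings added after seeing the data. No direction of a called change reversed. The count of enzymes called at 12 h in WT was 2 without the filter, where Nnmt joined Gcat, and the 24 h call of Tdh in WT then missed the threshold (limma adjusted p = 0.0511). With a replicate block for the pairing of libraries, 2 enzymes were called in delta 0.7 at 12 h and 3 in each genotype at 24 h, Ahcy being the one added; it changed no other call of the enzymes. Leaving out 1 library gave 0 to 3 calls at 12 h and 1 to 4 at 24 h in delta 0.7, and 0 to 1 at 12 h and 1 to 2 at 24 h in WT, and 0 in each other contrast. Without both 0 h replicate 1 libraries, 2 enzymes were called in delta 0.7 at 12 h, Gcat lower and Mat2a higher (1.15, limma adjusted p = 0.00866). In that setting Mat2a was called higher at 24 h too, at 1.40 in delta 0.7 and 0.65 in WT, and Tdh at 24 h was not called in WT (-1.41, adjusted p = 0.0649). Without the 3 WT replicate 2 libraries, 0 enzymes were called in WT at 12 h and at 24 h, when WT had 1 library per group, assumed to vary like the others; Gcat was then at -1.42 and Tdh at -1.90 at 24 h. Without the delta 0.7 replicate 2 library at 0 h, Ahcy (-1.31) and Shmt1 (-0.67) were called lower at 24 h in delta 0.7. The cause of these shifts was not tested. Scaling to the median gene moved no library by more than 0.036 log2. Depth limits Nnmt, which rested on at most 18 reads per library.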
